A study of Rattus norvegicus with 8 samples.

Results

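The cathepsins are the main proteases of the lysosome, and 10 genes were examined here, 9 of them encoding cathepsins (*Ctsa*, *Ctsb*, *Ctsc*, *Ctsd*, *Ctsh*, *Ctsk*, *Ctsl*, *Ctss* and *Ctsz*) and the other *Lamp1*, a membrane glycoprotein of the same organelle. They were chosen by name, with earlier results of these data known, from the 15159 genes that could be named on the arrays. Each was represented by 1 probe, printed in 2 spots per array. After injection of retinoic acid (RA), *Ctsz*, *Ctsc* and *Ctsh* mRNA were higher at an unadjusted p under 0.01 in limma, by 2.53-fold, 1.88-fold and 1.16-fold. None passed after adjustment (adjusted p = 0.227, 0.268 and 0.294 in limma). For *Ctsh* the mean log2 ratio was 0.44 with RA in the Cy5 dye and -0.01 with RA in Cy3. The remaining 7 genes did not reach an unadjusted p under 0.01, although the mean ratio of RA over vehicle lay above 1 for each of them.

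RA was injected into the third ventricle of male F344N rats, which photoperiodic work uses for their response to day length, and the hypothalamic block including the arcuate nuclei was taken 24 hrs later. Both groups of 4 rats were held in short days (SD) and received 5 μl through a cannula, one group all-*trans* RA and the other vehicle. The labels give RA as 1e-05 M and the vehicle as saline, whereas the methods of the study give 1e-04 M and DMSO in saline, and the age of the rats is not given in the sources used here. RA and vehicle RNA were hybridised together to 8 two-colour arrays on 1 slide, with RA in Cy5 on arrays 1, 3, 6 and 8 and in Cy3 on arrays 2, 4, 5 and 7. Arrays 1 to 4 lay in slide row 1 and arrays 5 to 8 in slide row 2. The methods state that the same samples were used again with the dyes exchanged, but not which arrays share RNA, so the 8 arrays are not 8 independent comparisons.

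Cathepsins are made as inactive precursors, carried to the lysosome and activated there by cleavage at acid pH. Most are cysteine proteases, while cathepsin D is an aspartic and cathepsin A a serine protease. In the brain they are present in neurons and are abundant in microglia and macrophages, which take up and digest debris and process antigen. Many lysosomal genes share the transcription factor TFEB, which binds E-boxes (CACGTG) in their promoters.

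All 10 probes were well above background in both channels of all 8 arrays, and none was saturated. Duplicate spots of a probe differed by a median of 0.01 to 0.12 on the log2 scale. Of all probes on an array, 57.4% to 74.6% in the RA and 61.2% to 74.5% in the vehicle channel exceeded background clearly. As a check of the tissue, 10 of 10 measured neuropeptide genes of hypothalamic neurons were on every array well above background in at least 1 channel. Every ratio below is log2 of RA over vehicle within an array, and the test was limma on 4 pair means, each joining an array of either dye order. There were 24 ways to pair the arrays, and the highest p among them was taken. A gene was called when its unadjusted p lay under 0.01, the threshold of the study's methods. After Benjamini-Hochberg adjustment no probe had a p under 0.05 (the lowest was 0.222 in limma), whereas 3292 of 30367 probes had an unadjusted p under 0.05. The calls below are therefore unadjusted.

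With this threshold 3 of the 10 genes were called higher after RA and 0 lower. Among all named genes 3.52% were called higher and 0.792% lower. The median log2 fold change of the 10 genes was 0.21, against -0.00470 over all named genes, and all 10 fold changes lay above 0, as did those of 47.6% of named genes. An unadjusted p under 0.05 in the higher direction was found for 7 of the 10 genes and for 8.48% of named genes. *Ctsz* and *Ctsc* had a ratio above 0 on all 8 arrays, which was the case for 4.07% of named genes. As the 10 genes and the lists used below were chosen with earlier results of these data known, these contrasts with all named genes are descriptions and not tests. The count of 3 fell to 1 when arrays 6 and 7, 8 and 5, or 8 and 7 were left out, and to 0 with the log ratio of the image software, and it was 5 without arrays 3 and 4. Calls over all probes moved the same way, from 988 to 603, 455, 541, 330 and 1111 in these fits.

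**Figure D1:**
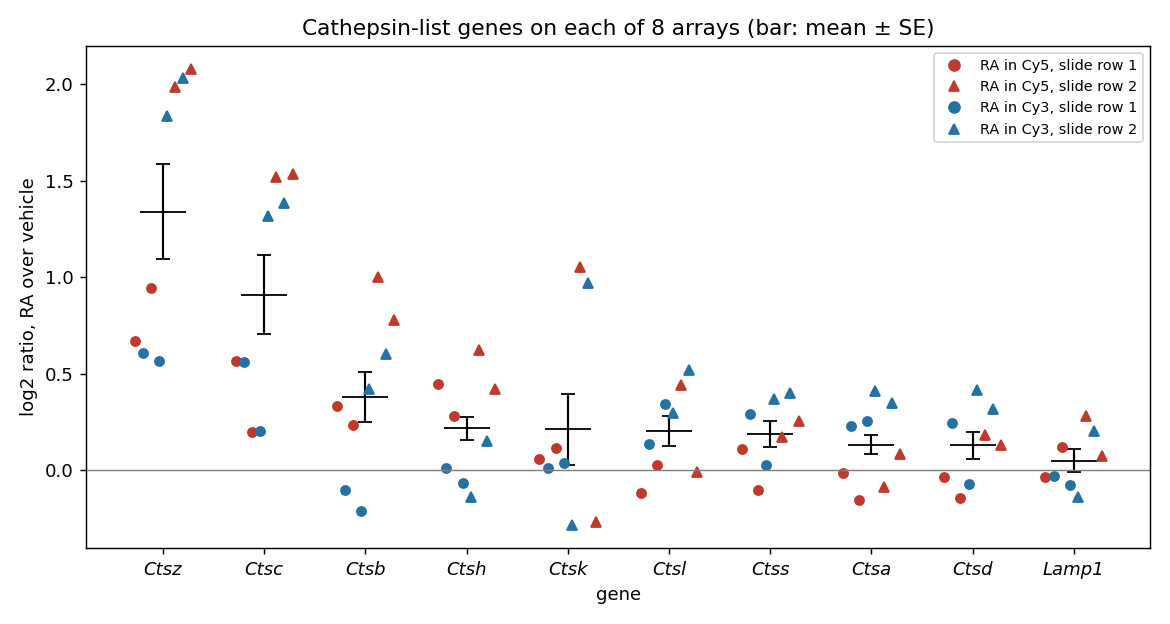
Log2 ratios of RA over vehicle (vertical axis) of the 10 genes (horizontal axis, by fold change) on each array. Each point is an array, in the order 1 to 8 from left to right, red with RA in Cy5 and blue with RA in Cy3, circles for slide row 1 and triangles for slide row 2. Bars give the mean and its SE, from 1.34 for *Ctsz* to 0.05 for *Lamp1*, and the triangles of *Ctsz* and *Ctsc* all lie above their circles.

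Of the exopeptidases, which trim residues from protein ends, *Ctsz* encodes a carboxypeptidase found mainly in cells of the immune system. Its log2 ratios were 0.67, 0.61, 0.94 and 0.56 on arrays 1 to 4 and 1.83, 1.98, 2.03 and 2.08 on arrays 5 to 8. The ratio was thus above 0 on every array, with the higher values all in slide row 2. The mean was 1.34 ± 0.25 (SE), with an adjusted p of 0.227 in limma (unadjusted p = 0.000893). *Ctsz* had the highest ratio of the 10 genes on each of the 8 arrays. Its normalised log2 intensity ran from 7.89 to 9.15 in the vehicle channels and from 8.66 to 11.14 in the RA channels, so that the 2 ranges overlapped between arrays while RA was the brighter channel within each array.

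*Ctsc* encodes dipeptidyl peptidase 1, which removes dipeptides and activates the granule serine proteases of immune cells. On arrays 1 to 4 its log2 ratios were 0.57, 0.56, 0.20 and 0.20, and on arrays 5 to 8 they were 1.32, 1.52, 1.39 and 1.53. As for *Ctsz*, no array was below 0 and the values of the slide rows did not overlap. The mean was 0.91 ± 0.21 (SE), with an adjusted p of 0.268 in limma (unadjusted p = 0.00279). The vehicle channels ran from 7.69 to 8.97 and the RA channels from 8.03 to 10.49 in normalised log2 intensity.

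*Ctsh* encodes an aminopeptidase, and it passed the threshold with a smaller change. The log2 ratios were 0.45, 0.28, 0.62 and 0.42 on the arrays with RA in Cy5, and 0.01, -0.07, -0.14 and 0.15 on those with RA in Cy3. All arrays of the first dye order lay above all of the second, in which values fell on either side of 0. The mean over both was 0.22 ± 0.06 (SE), with an adjusted p of 0.294 in limma (unadjusted p = 0.00728). The call held in 4 of the 16 fits that left out an array of each dye order, against 16 of 16 for *Ctsz* and 12 of 16 for *Ctsc*. The dye orders differed by 0.45 (adjusted p = 0.0344, limma with a dye term).

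*Ctsa*, the serine carboxypeptidase that also protects lysosomal β-galactosidase and neuraminidase, showed the opposite split. Its log2 ratios were -0.02, -0.15, -0.09 and 0.08 with RA in Cy5 and 0.23, 0.25, 0.41 and 0.35 with RA in Cy3. The 2 dye orders did not overlap here either, with means of -0.04 and 0.31, and they differed by -0.35 (adjusted p = 0.0435 in limma). The mean over both orders was 0.13 ± 0.05 (SE), which was not called (unadjusted p = 0.0323 and adjusted p = 0.406 in limma). A difference between dye orders with an adjusted p under 0.05 was found for 2 of the 10 genes and for 3.91% of named genes. For the other 8 genes the adjusted p of this difference was 0.282 or more, which does not show that the orders were alike.

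**Figure D2:**
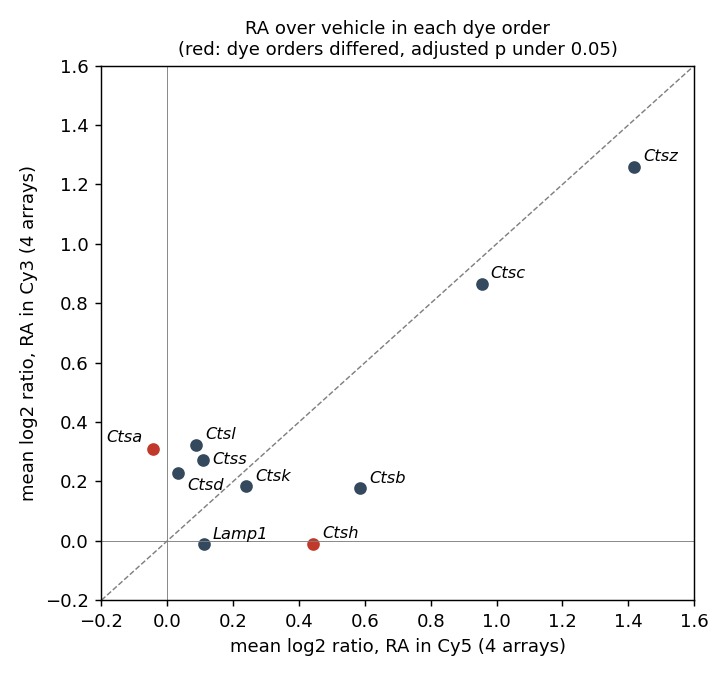
Mean log2 ratio of RA over vehicle on the 4 arrays with RA in Cy5 (horizontal axis) and on the 4 arrays with RA in Cy3 (vertical axis), with 1 point per gene and a dashed line of equality. *Ctsz* and *Ctsc* lie near the line at the upper right, whereas *Ctsa* (-0.04 and 0.31) and *Ctsh* (0.44 and -0.01), in red, lie on either side of it.

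The endopeptidases, which cut within protein chains, were not called. *Ctsb* encodes an abundant cysteine protease with both endopeptidase and peptidyl-dipeptidase activity. Its log2 ratios were 0.33, -0.10, 0.23 and -0.21 on arrays 1 to 4 and 0.42, 1.00, 0.60 and 0.78 on arrays 5 to 8. Only in slide row 1 were values below 0 found, both with RA in Cy3. The mean was 0.38 ± 0.13 (SE; unadjusted p = 0.0208 and adjusted p = 0.360 in limma). The unadjusted p of *Ctsb* was under 0.01 in 19 of the 24 pairings, so its p depended on the pairing assumed. That of *Ctsz*, *Ctsc* and *Ctsh* was under it in 24 of 24. With arrays 1 and 2, 3 and 4, 6 and 7, and 8 and 5 as pairs, which gave the fewest calls over all probes, *Ctsb* was not called (unadjusted p = 0.0203 in limma) and the count of genes called stayed at 3. Of these pairs, arrays 6 and 7 shared low ratios of choroid plexus genes, and arrays 8 and 5 low ratios of neuropeptide genes, as given below. No source states the pairs.

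*Ctsl*, a broadly expressed cysteine protease, had log2 ratios of -0.12, 0.14, 0.03, 0.34, 0.30, 0.44, 0.52 and -0.01 on arrays 1 to 8. *Ctss*, a cysteine protease of antigen-presenting cells that remains active at neutral pH, gave 0.11, 0.29, -0.10, 0.03, 0.37, 0.17, 0.40 and 0.25. Both had most arrays above 0, 6 of 8 for *Ctsl* and 7 of 8 for *Ctss*. Their means were 0.21 ± 0.08 and 0.19 ± 0.07 (SE), with adjusted p of 0.400 and 0.372 in limma (unadjusted p = 0.0305 and 0.0239). Each was under an unadjusted p of 0.01 in 16 of 24 pairings.

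*Ctsd*, the aspartic protease and one of the most widespread lysosomal enzymes, had log2 ratios of -0.03, 0.25, -0.14, -0.07, 0.42, 0.18, 0.32 and 0.13. The negative values were again confined to slide row 1, and the mean was 0.13 ± 0.07 (SE; unadjusted p = 0.105 and adjusted p = 0.576 in limma). *Ctsk*, a collagen-cleaving protease known from osteoclasts, was close to 0 on arrays 1 to 4 (0.06, 0.01, 0.12 and 0.04) and spread widely on arrays 5 to 8 (-0.28, 1.05, 0.97 and -0.27). Arrays 6 and 7 were high and arrays 5 and 8 low, and the mean was 0.21 ± 0.19 (SE; adjusted p = 0.769 in limma). Without arrays 6 and 7 it was -0.05. *Ctsk* was never under an unadjusted p of 0.01 in the 24 pairings.

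*Lamp1*, which encodes a heavily glycosylated protein of the lysosomal membrane and no protease, had log2 ratios of -0.03, -0.03, 0.12, -0.08, -0.14, 0.28, 0.20 and 0.07. Values fell on either side of 0, on 4 arrays each, and the mean of 0.05 ± 0.06 (SE; unadjusted p = 0.433 and adjusted p = 0.844 in limma) was the lowest of the 10. In normalised log2 intensity the RA channels ran from 12.06 to 13.11 and the vehicle channels from 12.14 to 12.82. As these were bulk tissue blocks, a change in the number of cells that carry a transcript and a change in RNA per cell cannot be told apart for any of the genes.

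**Figure D3:**
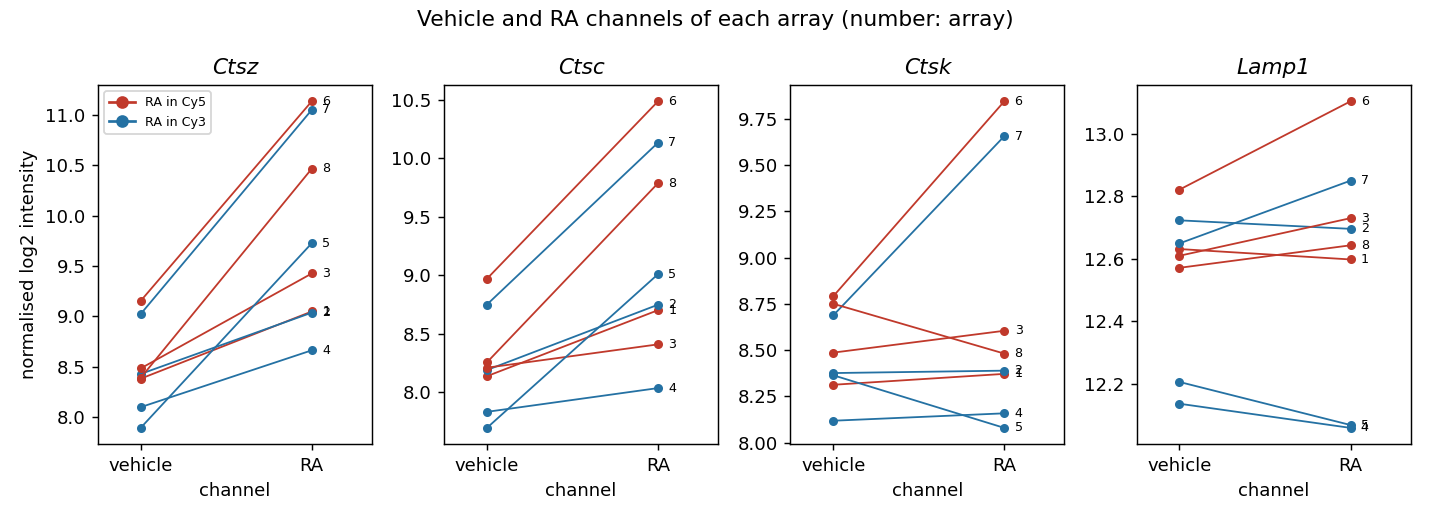
Normalised log2 intensity (vertical axes, scaled per gene) of the vehicle and RA channels, joined within each array (red, RA in Cy5, and blue, RA in Cy3, with the array number at the right) for *Ctsz*, *Ctsc*, *Ctsk* and *Lamp1*. Every line of *Ctsz* and *Ctsc* rises from vehicle to RA, only arrays 6 and 7 rise steeply for *Ctsk* (1.05 and 0.97), and lines of *Lamp1* run both ways.

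To set these responses beside sequence, the promoters of 9 of the 10 genes were taken from RefSeq on build GRCr8, of which *Ctsb* had no entry. The last 100 bases before the gene start are shown for the 2 genes with the largest fold changes, for *Ctss*, and for the 2 genes with the smallest fold changes. Capitals mark each E-box, CACGTG, the core of the element bound by TFEB.
*Ctsz* promoter, chr3:183653848-183653947, minus strand: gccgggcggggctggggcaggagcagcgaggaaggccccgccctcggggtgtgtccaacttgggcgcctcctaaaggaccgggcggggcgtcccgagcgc
*Ctsc* promoter, chr1:151440949-151441048, plus strand: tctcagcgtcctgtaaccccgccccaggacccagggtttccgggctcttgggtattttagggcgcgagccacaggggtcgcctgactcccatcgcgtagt
*Ctss* promoter, chr2:185775296-185775395, plus strand: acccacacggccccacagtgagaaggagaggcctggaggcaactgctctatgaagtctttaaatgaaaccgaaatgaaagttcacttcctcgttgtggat
*Ctsd* promoter, chr1:206968822-206968921, minus strand: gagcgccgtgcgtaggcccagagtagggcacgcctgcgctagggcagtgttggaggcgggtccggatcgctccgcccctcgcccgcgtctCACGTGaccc
*Lamp1* promoter, chr16:83075064-83075163, minus strand: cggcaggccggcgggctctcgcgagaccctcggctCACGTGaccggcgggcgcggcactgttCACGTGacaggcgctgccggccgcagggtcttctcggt
Within 250 bases before the start, E-boxes were found in 2 of the 9 promoters, 5 in *Lamp1* (the first base 183, 167, 150, 65 and 38 bases before the start) and 2 in *Ctsd* (157 and 10 bases before it). TCACGTGA, a longer palindrome that contains it, was found at 2 of those sites in *Lamp1* and 1 in *Ctsd*. CACGTG was held by 5.79% of 27457 promoters and by 17.9% of the 95 promoters matched for the other lysosomal genes below, and TCACGTGA by 0.743% and 7.37%. *Ctsz* and *Ctsc*, the genes with the largest fold changes, held neither in this window. *Ctsd* and *Lamp1*, which held both, had log2 fold changes of 0.13 and 0.05 and were not called. *Ctsa*, *Ctsk*, *Ctsl* and *Ctss* held neither and were not called either, at 0.13, 0.21, 0.21 and 0.19. A link between these motifs and the response was not tested.

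On both strands, GAGGAA, a core shared by the ETS family of factors, among them the myeloid PU.1, was found in 6 of the 9 promoters (*Ctsa*, *Ctsc*, *Ctsh*, *Ctsk*, *Ctss* and *Ctsz*). It was in 23.2% of all promoters and in 28.4% of the other lysosomal ones. The 3 called genes were among these 6, as were 3 genes that were not called. AGGTCA, the hexamer bound by retinoic acid receptors, was found in *Ctss* alone and in 13.7% of all promoters. Direct repeats of it spaced by 5 or 2 bases were in none of the 9 and in 0.0109% and 0% of all. GAAA repeated after 2 bases, the core of interferon-stimulated elements, was found in *Ctss* and *Lamp1* and in 3.29% of all promoters, and the GC box GGGCGG in 5 of the 9 (*Ctsa*, *Ctsc*, *Ctsd*, *Ctsl* and *Ctsz*), in 32.4% of all and in 58.9% of the other lysosomal promoters. No E-box overlapped another of these motifs apart from the longer palindrome. These are matches of letters in a short window and say nothing of binding.

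Next, the ratios were compared between arrays. The median log2 ratio of the 10 genes was 0.08, 0.18, 0.12 and 0.03 on arrays 1 to 4 and 0.39, 0.53, 0.46 and 0.19 on arrays 5 to 8, and on array 7 all 10 genes were above 0. The 4 arrays of row 1 all had a lower median than those of row 2, the nearest being arrays 2 and 8. The row means were 0.70 and 1.98 for *Ctsz*, 0.38 and 1.44 for *Ctsc*, and 0.06 and 0.70 for *Ctsb*. In limma with terms for dye and slide row, these 3 of the 10 genes differed between rows, by 1.29 (adjusted p = 9.27e-05), 1.06 (adjusted p = 0.00104) and 0.64 (adjusted p = 0.00445), as did 2.41% of named genes. RA and vehicle were both present on every array of both rows. As rats and rows may coincide, slide position and rat cannot be told apart, and since arrays share RNA these p-values, which treat the 8 arrays as independent, are too small.

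Within each row *Ctsz* and *Ctsc* had means above 0. With row as a block, which cannot move the fold changes as both rows hold both dye orders equally, *Ctsz*, *Ctsc*, *Ctsb*, *Ctsh* and *Ctss* had an adjusted p under 0.05 in limma (8.89e-08, 4.68e-06, 0.000320, 0.0197 and 0.0261). Of all named genes, 6.65% were higher at that level with row as a block. On pair means none of these genes passed (adjusted p = 0.227, 0.268, 0.360, 0.294 and 0.372 in limma). Without the row term, the same 8 arrays gave adjusted p of 0.0116 for *Ctsz*, 0.0245 for *Ctsc* and 0.0410 for *Ctsh*, and 3.41% of named genes were higher at that level. The fits with and without the row term both treat the 8 arrays as independent. As arrays share RNA, the p-values of both fits are too small.

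Across the 8 arrays the genes did not follow each other uniformly. Pearson's r between the log2 ratios of 2 genes, over 8 arrays and 45 pairs of genes, ran from -0.81 for *Ctsa* and *Ctsh* to 0.95 for *Ctsd* and *Ctss*, with a median of 0.40. *Ctsz* and *Ctsc* had an r of 0.94 and *Ctsk* and *Lamp1* of 0.83. The points share RNA, slide row and dye order, and the lowest r joins the 2 genes whose ratios split by dye order in opposite directions. The named genes whose ratios followed the median of the 10 most closely, of 10033 bright genes, were *Renbp*, encoding renin binding protein (r = 0.97), the homeobox gene *Hlx* (0.96), *Mrpl45* of the mitochondrial ribosome (0.96), the calcium-binding *Cib1* (0.95) and the palmitoyltransferase gene *Zdhhc18* (0.95). Of these *Hlx*, *Cib1* and *Zdhhc18* were called, with log2 fold changes of 0.53, 0.27 and 0.41, whereas *Renbp* and *Mrpl45* averaged 0.01.

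The other genes of the lysosome were then examined in 6 lists with 109 genes on the arrays. Of these, 6 were called higher and 0 lower, against the 3.52% of all named genes called higher and 0.792% called lower. Their median log2 fold change was 0.01, with 60 of 109 above 0 and 47.6% of named genes above it. Of the 109, 86 were well above background on all arrays, whereas all 10 of the cathepsin list were, so the medians cover unlike shares of dim probes. The genes called were the endopeptidase legumain (*Lgmn*), which cleaves cathepsin precursors, the acid nuclease *Dnase2*, the metal transporter *Slc11a1* of phagosomes, the macrophage glycoprotein *Cd68*, the tetraspanin *Cd63* and the proton pump subunit *Tcirg1*. The other genes of the 6 lists were not called. The count of 6 was 0 without arrays 8 and 5, and between 1 and 2 without arrays 6 and 5, 6 and 7, or 8 and 7, and it was 10 without arrays 3 and 4.

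By role, the other cathepsins numbered 11 on the arrays, of which none was called and the median was -0.00451. Only *Ctsf* and *Ctse* of these were well above background on all arrays, at -0.11 ± 0.06 and 0.25 ± 0.15 (SE). None of 10 cystatins, the inhibitors of cysteine cathepsins, was called, with a median of -0.04. Only 4 of these 10 were well above background on all arrays, so the count and median rest largely on dim probes. *Cst3*, which encodes the secreted cystatin C, was at -0.16 ± 0.11 and *Cstb*, a cytosolic inhibitor, at 0.14 ± 0.06.

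Of 37 hydrolases and their partners, 2 were called higher, beside 3.52% of named genes, with a median of 0.06. *Lgmn* had log2 ratios of 0.29, 0.14, 0.39 and 0.30 on arrays 1 to 4 and 0.76, 1.12, 1.10 and 0.93 on arrays 5 to 8, so that the rows again did not overlap. Its mean was 0.63 ± 0.14 (SE; adjusted p = 0.268 in limma), and that of *Dnase2* was 0.46 ± 0.11. *Acp5*, the tartrate-resistant acid phosphatase, was not called at 0.58 ± 0.18, nor was the serine carboxypeptidase gene *Scpep1* at 0.13 ± 0.05.

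Of 22 membrane genes, 3 were called higher, beside the same 3.52%, with a median of 0.00. *Cd68* had log2 ratios of 0.86, 1.17, -0.24 and -0.14 on arrays 1 to 4 and 1.83, 1.51, 1.65 and 1.88 on arrays 5 to 8, with a mean of 1.07 ± 0.29 (SE; adjusted p = 0.297 in limma). Arrays 3 and 4 alone were below 0. *Slc11a1* averaged 0.93 ± 0.20 and *Cd63* 0.34 ± 0.10, while *Laptm5* of leukocyte lysosomes was not called at 0.39 ± 0.12. Of 19 subunits of the proton pump that acidifies lysosomes, *Tcirg1* alone was called (0.33 ± 0.08), and the median was -0.02. Its neighbours in the list by p were *Atp6v0e1* at 0.17 ± 0.05, *Atp6v1a* at -0.15 ± 0.05 and *Atp6v1b2* at -0.12 ± 0.04. None of 10 genes of sorting and regulation was called (median 0.02), among them *Grn*, which encodes progranulin, at 0.57 ± 0.17 (unadjusted p = 0.0122 in limma), *Sorl1* at -0.16 ± 0.07, *M6pr* at 0.12 ± 0.06 and *Sort1* at -0.10 ± 0.05.

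**Figure D4:**
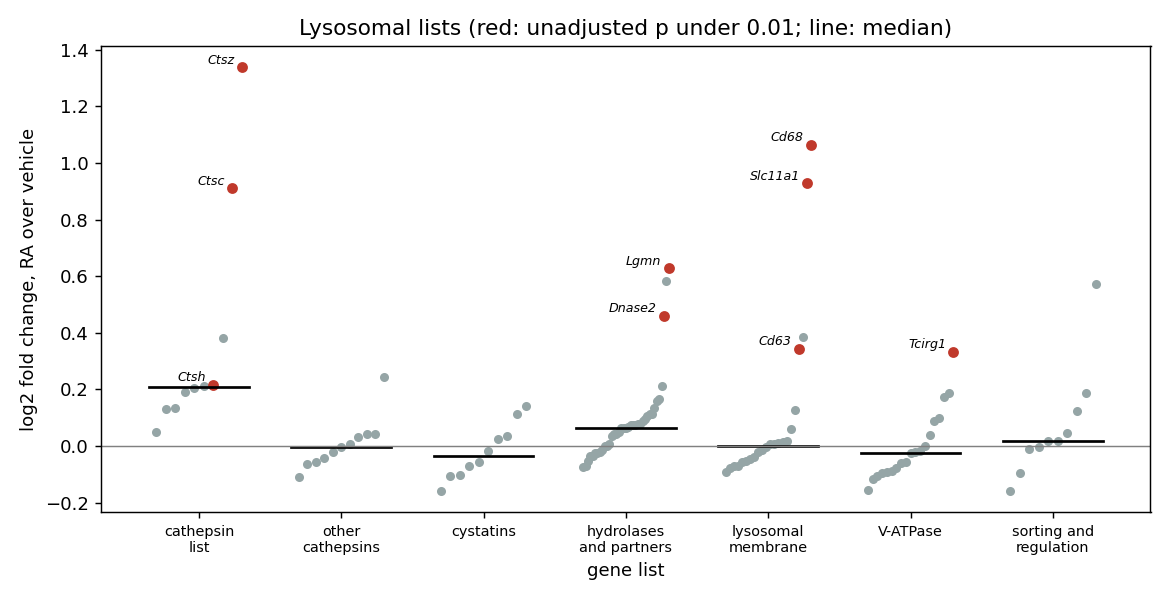
Log2 fold change of RA over vehicle (vertical axis) of every gene on the arrays in the list of 10 and in 6 other lysosomal lists (horizontal axis), sorted within each list. Red points had an unadjusted p under 0.01 in limma (3 of 10 and 6 of 109), grey points did not, and black lines are medians, 0.21 for the 10 genes and between -0.04 and 0.06 for the others. Genes not well above background are included, and 86 of the 109 were well above it on all arrays.

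Markers of the cells that the tissue block holds were read beside these values. Of all named genes, 3.52% were called higher and 0.792% lower. Of 7 monocyte and macrophage genes on the arrays, 3 were called higher. These were the Fc receptor *Fcgr3a* (2.00 on the log2 scale), the lipopolysaccharide co-receptor *Cd14* (1.43) and lysozyme, *Lyz2* (1.30). The other 4 were not called, *Cd163* at 0.17, *Ccr2* at 0.12, *F13a1* at 0.07 and *Mrc1* at 0.06. For *Ccr2* and *Mrc1* the RA signal clearly exceeded background on only 1 and 2 arrays. *Lyz2* had log2 ratios of 0.79, 0.83, 0.40 and 0.68 on arrays 1 to 4 and 2.00, 1.93, 1.93 and 1.82 on arrays 5 to 8, a division by slide row like that of *Ctsz*. Of 9 microglial genes 2 were called higher, *Aif1* (0.88) and *Itgam* (0.87), and 1 was called lower, *Tmem119* (-0.52), with a median of -0.02 over the list. Of 5 neutrophil genes 1 was called higher, *S100a9* (1.25), with 2.83 and 2.75 on arrays 6 and 7. *S100a8* was at 0.94 and *Camp* at 0.05, neither of them called, and *Elane* and *Ltf* were well above background on 0 arrays.

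The resident cells of the brain differed among themselves. Of 6 astrocyte genes, *Gfap*, the intermediate filament of reactive astrocytes, was called higher (1.40, above 0 on 8 of 8 arrays) and the gap junction gene *Gja1* lower (-0.22), with a median of -0.03. None of 6 oligodendrocyte genes was called, but all 6 had a fold change below 0 and 4 had an unadjusted p under 0.05, *Mbp* being at -0.25. Of 15159 named genes, 693 were lower at an unadjusted p under 0.05 in limma, and 47.6% had a fold change above 0. Of 5 general neuronal genes the neurofilament gene *Nefl* was called lower (-0.30, below 0 on 8 of 8 arrays), and of 10 neuropeptide genes *Cartpt* alone was called, lower (-0.42). None of 5 endothelial and none of 7 choroid plexus genes was called. The part of these cells in the cathepsin values was not tested.

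Tissue markers also set some arrays apart. On arrays 6 and 7 all 7 choroid plexus genes were below 0, with medians of -1.38 and -1.57, and *Ttr*, the transthyretin gene and the main choroid product, was at -4.48 and -5.11. On arrays 5 and 8 none of the 10 neuropeptide genes was above 0, with medians of -0.76 on both. *Ctsk* was high on arrays 6 and 7 and low on arrays 5 and 8. *Ctsz* was at 1.98 and 2.03 on arrays 6 and 7 and at 1.83 and 2.08 on arrays 5 and 8. *Ctsc* was at 1.52 and 1.39 on arrays 6 and 7 and at 1.32 and 1.53 on arrays 5 and 8. On arrays 1 to 4 the choroid medians lay between 0.08 and 0.40, and *Ctsz* and *Ctsc* had lower ratios, above 0. On arrays 5 and 8, where both genes had high ratios, the choroid medians were 0.32 and 0.64. Arrays 6 and 7, and likewise arrays 5 and 8, may hold the same RNA with the dyes exchanged. Without arrays 6 and 7 *Lamp1* averaged -0.01, and 1 of the 10 genes was called. The part of tissue composition in these values was not tested.

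**Figure D5:**
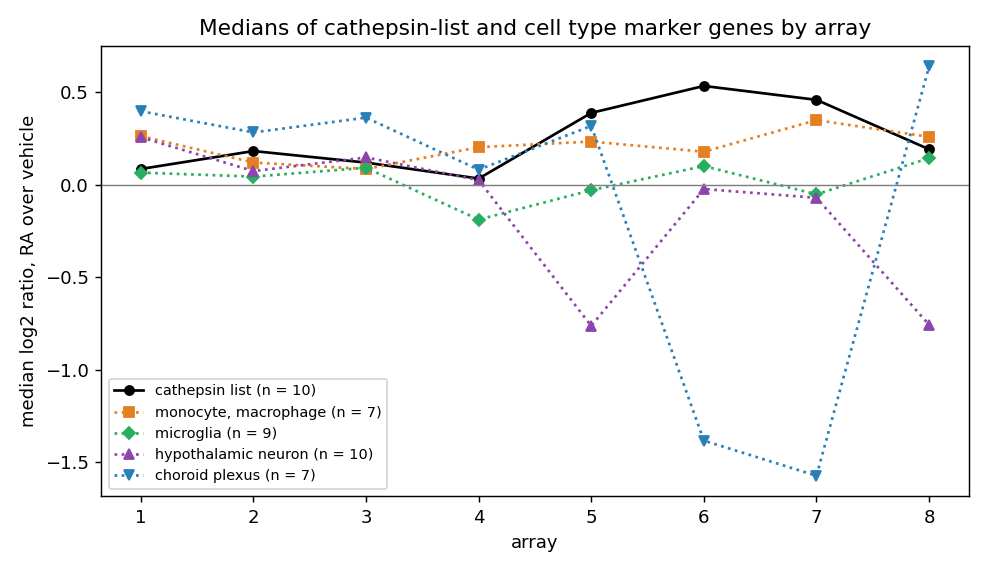
Median log2 ratio of RA over vehicle (vertical axis) on arrays 1 to 8 (horizontal axis) for the 10 genes (black, solid) and for marker lists of 4 cell types (dotted), with the number of genes in each list in the key. The median of the 10 genes stays above 0, between 0.03 and 0.53, whereas the choroid plexus list drops to -1.38 and -1.57 on arrays 6 and 7 and the hypothalamic neuron list to -0.76 on arrays 5 and 8.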

How the data were processed

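The deposited files hold, for each two-colour array, the Cy3 and Cy5 intensity of every spot on a linear scale and the log10 ratio of Cy5 over Cy3 from Feature Extraction 10.7.3.1. The authors also deposited loess-normalised log2 ratios for the whole series, with identical probes averaged, and their methods tested these in limma with the dye-swaps as a block.

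Here R 4.3.3 and limma 3.58.1 were used. Median spot intensities were background-corrected by normexp (offset 50), control spots and outlier spots (0.913% to 2.42% of an array, by the software's marks) were dropped, loess was applied within arrays, spots of a probe were averaged, and ratios were turned to RA over vehicle. A probe was taken as well above background where 0.5 or more of its spots carried that mark from the image software. Probes were named by transcript accession through RefSeq genes of GRCr8 (18006 of 30367), keeping the brightest probe per gene. There were 20 probes with a value missing on 1 or more arrays.

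Each probe was tested with an intercept in limma on 4 pair means, with the highest p of 24 pairings and Benjamini-Hochberg adjustment over all probes. An exact sign-flip test on 4 pairs cannot go below p = 0.125 and made no calls. When the comparison was simulated on 30347 probes, an unadjusted p under 0.01 was reached by 98% of probes with a true change of 0.5 (log2), by 100% with a change of 1, 2 or 3, and by 0.600% with none. In the data themselves *Lgmn*, at 0.63, was called, whereas *Acp5*, at 0.58, and *Grn*, at 0.57, were not. A gene that was not called may therefore still have changed by 0.5 or more.

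The 10 genes and all lists were chosen with earlier results of these data known. The text names all 10 genes, every bright gene of the other cathepsins, up to 4 genes of each lysosomal list with the smallest p among probes well above background on all arrays, and the 5 genes most like the median of the 10. Marker genes were named after their values were seen. Alternatives were other background corrections, Agilent's log ratio, the deposited log2 ratios, scaling between arrays, bright probes, outlier spots kept, a variance trend, single pairings, a random block, independent arrays, each dye order, each slide row and each of 16 pairs of arrays left out. Slide row as a block was added after seeing the data.

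Motifs were sought on both strands in the 250 bases before each start in the RefSeq promoters. The spread between arrays is partly technical, and their number limits the precision of every value.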

Additional observations from a re-analysis of the deposited data

Results flagged for a closer look

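In 2 of the 10 genes the ratio of RA over vehicle differed between the arrays with RA in Cy5 and those with RA in Cy3. For *Ctsh* the means were 0.44 and -0.01 on the log2 scale, a difference of 0.45 (adjusted p = 0.0344, limma with a dye term). For *Ctsa* the means were -0.04 and 0.31, a difference of -0.35 (adjusted p = 0.0435, limma with a dye term). In both genes the 4 arrays of one dye order all lay above the 4 of the other. The same difference passed for 3.91% of named genes. No array stood apart from the other 3 of its dye order by Dixon's test, in 22 groups examined, where chance gives about 1 in 20.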

How the results depend on the processing

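Of the 10 genes, 3 were called, and this count became 7 with the pairing that gave the most calls, 7 with 8 independent arrays and a dye term, 7 when slide row was added to that fit as a block (chosen after seeing the data), and 5 with a random replicate block over the pairing 1-2, 3-4, 6-7 and 8-5. The 2 calls gained there, *Ctsb* and *Ctss*, were not made on pair means of the same pairing (unadjusted p = 0.0203 and 0.0239 in limma), where the count stayed at 3. It became 5 with only arrays that had RA in Cy3, 1 with plain background subtraction, and 0 with Agilent's log ratio, where *Ctsz* had an unadjusted p of 0.0139 in limma. With each possible pair of arrays left out it ran from 1 to 5, and 1 gene was left without arrays 6 and 7, 8 and 5, or 8 and 7. Without these pairs, calls over all probes were 603, 455 and 541. They moved the same way in the other fits, from 988 to 3142, 2481, 3111 and 1722 in those first 4 fits, 237 with plain subtraction and 330 with Agilent's log ratio. The count of other lysosomal genes, 6 of 109, became 17, 14, 19 and 11 in the same 4 fits, 14 with RA in Cy3 only, 1 with plain subtraction, 2 with Agilent's log ratio, 2 in slide row 1 and 11 in slide row 2, and ran from 0 to 10 with pairs left out. The median fold change of the 10 genes stayed above 0, from 0.08 to 0.31. Single genes changed sign in 6 cases, all of them near 0. These were *Ctsa* with RA in Cy5 only (-0.043), *Ctsh* and *Lamp1* with RA in Cy3 only (-0.00916 and -0.010), *Lamp1* in slide row 1 (-0.00442), and *Ctsk* and *Lamp1* without arrays 6 and 7 (-0.054 and -0.014, the low ends of ranges that reached 0.38 and 0.095 with other pairs left out). *Ctsz* was under an unadjusted p of 0.01 in 16 of 17 other settings and in 16 of 16 with a pair of arrays left out, *Ctsc* in 15 and 12, and *Ctsh* in 12 and 4. The cause of these differences was not tested. Every gene had 1 probe, so no setting with all probes of a gene could be run. The labels pair no arrays by number, and the replicate block rests on a pairing that no source states. The number of arrays and the unknown pairing limit all p-values. All 10 probes carried the mark for well above background, but *Ctsc*, *Ctsz* and *Ctsk* were the dimmest. Their median vehicle intensities were 8.20, 8.41 and 8.43 on the normalised log2 scale, against 11.01 to 15.37 for the others. With plain background subtraction *Ctsc* was at 1.09 and not called (unadjusted p = 0.0198 in limma), and *Ctsz* was at 1.53 and called.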
